A study of Mus musculus with 2 samples.

Results

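The clustered protocadherin genes lie in 3 tandem arrays, alpha, beta and gamma, on mouse chromosome 18. They were taken as all GENCODE vM1 genes on that chromosome whose names start with Pcdha, Pcdhb or Pcdhg. This gave 25 of the 37310 annotated genes, 2 in the alpha, 22 in the beta and 1 in the gamma array. The annotation joins most alpha variants under the name Pcdha11 and all gamma variants under the name Pcdhgc5, so the unit described here is the first exon, of which there were 41 (10 alpha, 22 beta and 9 gamma). For comparison, all protein-coding genes together had 41897 first exons. On mm9 the cluster ran from 37089939 to 38001527, which is 912 kb, with alpha from 37089939 to 37347311, beta from 37424652 to 37681073 and gamma from 37833989 to 38001527, all on the plus strand. Another 17 variants known to RefSeq (4 alpha and 13 gamma) have no start of their own in this annotation, and their promoters were not analysed here.

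ATAC-seq, which marks accessible DNA by letting the transposase Tn5 cut and tag it, was carried out on 2 lines of undifferentiated E14 mouse ESCs. The first was wild type for Uhrf1 (WT) and the second lacked Uhrf1 (Uhrf1 KO), and both came from another laboratory. Both were grown with leukemia inhibitory factor on gelatin or on embryonic fibroblast feeders, and 50000 cells were lysed for a library. Each genotype had 1 library from 1 line, so no difference between the lists can be tested, and the values compare libraries rather than genotypes. The deposited data are lists of open regions (peaks) with no read counts, 71914 in WT and 61640 in Uhrf1 KO, and the depth behind a single peak is unknown. Within 2 kb of a start, 7 of 7 ESC markers had a peak in both libraries. Of 6 fibroblast markers, 3 (Col1a1, Col1a2 and Thy1) also had one in both, and Col3a1, Twist2 and Postn had none in either. Neuron markers had one in 5 of 5 in WT and 4 of 5 in Uhrf1 KO. All protein-coding genes had one in 63.7% in WT and 58.8% in Uhrf1 KO, so such peaks do not identify the cell type. The Uhrf1 start had 2 WT and 3 KO peaks within 2 kb, so these lists do not check the genotype.

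Clustered protocadherins are cell-surface adhesion proteins with which neurons tell their own branches from those of other neurons. Each variable first exon has its own promoter and encodes the whole extracellular part. In the alpha and gamma arrays it is spliced to shared constant exons, whereas a beta gene is a complete coding exon on its own. A neuron uses only a few of the many alternate promoters, and the C-type exons at the ends of the alpha and gamma arrays are used more broadly. CTCF and cohesin bind many of these promoters, and DNA methylation holds alternate promoters silent. Uhrf1 brings the maintenance methyltransferase Dnmt1 to newly copied DNA, which makes this locus of interest in cells without Uhrf1.

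Within 2 kb of a transcript start, 9 of the 41 first exons had a WT peak (21.95%, 95% exact binomial interval 10.6 to 37.6) and 9 had a KO peak (the same share). In all protein-coding genes these shares were 43.4% in WT and 39.4% in Uhrf1 KO, both above that interval. Both lists held a peak at the same 5 first exons (Pcdhac1, Pcdhac2, Pcdhb6, Pcdhb10 and Pcdhgc3), and 28 had none in either. At Pcdhb6 and Pcdhb10 the shared peaks lay in the exon body, with the nearer edge 1547 to 1826 bp from the start. These peaks are counted again below among the downstream beta peaks. A WT peak alone was found at 4 (Pcdhb1, Pcdhgb6, Pcdhga12 and Pcdhgc4) and a KO peak alone at 4 others (Pcdhb3, Pcdhb15, Pcdhga3 and Pcdhga9). Among all first exons, 6% had a WT peak without a KO peak and 2% the reverse. Counted as annotated genes, 5 of 25 had a peak in WT and 6 of 25 in Uhrf1 KO, against 63.7% and 58.8% of all protein-coding genes. All intervals given here cover counting error only.

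**Figure D1:**
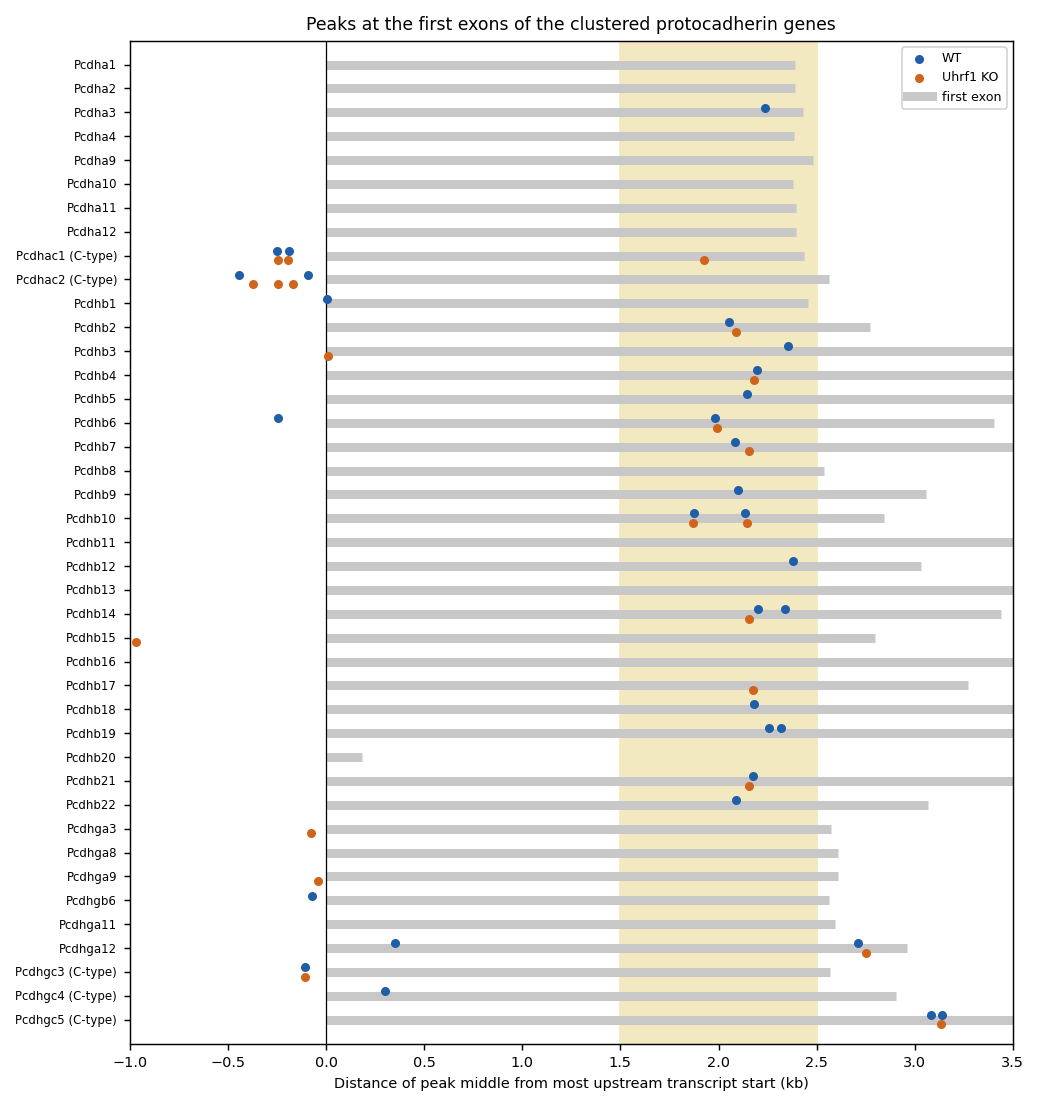
Peaks of WT (blue) and Uhrf1 KO (orange) ESCs at the 41 first exons, as the distance in kb of the middle of a peak from the most upstream start, with each exon as a grey bar cut at 3.5 kb and the stretch from 1.5 to 2.5 kb shaded. Peaks of C-type exons gathered at the start, whereas those of 14 beta exons in WT and 8 in Uhrf1 KO lay in the shaded stretch.

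Most C-type exons had an open start. Within 500 bp of a start, 4 of 5 had a peak in WT (80.0%, interval 28.4 to 99.5) and 3 of 5 in Uhrf1 KO (60.0%, 14.7 to 94.7), against 36.2% and 32.3% of all first exons. Pcdhac1 had 2 peaks in each library, 249 and 188 bp upstream in WT and 246 and 193 bp upstream in Uhrf1 KO. Pcdhac2 had 2 WT peaks, 446 and 93 bp upstream, and 3 KO peaks at 371, 246 and 169 bp upstream. At Pcdhgc3 the lists gave the identical interval, chr18:37965909-37966009, 105 bp upstream. Pcdhac1 and Pcdhgc3 therefore had peaks at matching positions in both libraries. Those at Pcdhac2 were shifted, and its KO peak 246 bp upstream overlapped no WT peak, though all had a partner within 100 bp. Pcdhgc4 differed, with 1 WT peak 299 bp downstream of its start and no KO peak. Pcdhgc5 had none near its start in either library, but shared peaks lay 2977 and 3030 bp (WT) and 3025 bp (KO) from its nearest start, within the first exon of 1 transcript model and an intron of the other.

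Few alternate starts were listed as open, and within 500 bp none was listed in both libraries. Of 36 alternate first exons, 4 had a WT peak (11.1%, interval 3.11 to 26.1) and 3 others a KO peak (8.33%, 1.75 to 22.5). All 8 alternate alpha exons with an annotated start had no peak within 2 kb of it. Pcdha5, Pcdha6, Pcdha7 and Pcdha8 have no annotated start and were not analysed. A WT peak 3825 bp upstream of Pcdha9 had a central word at 9 places, all within the cluster. Whether it lies at an unannotated alpha exon was not tested. The WT peaks within 500 bp lay at the start of Pcdhb1 (3 bp downstream), upstream of Pcdhb6 (247 bp) and Pcdhgb6 (74 bp), and 349 bp downstream of the start of Pcdhga12. The KO peaks lay at the starts of Pcdhb3 (8 bp downstream), Pcdhga3 (76 bp upstream) and Pcdhga9 (43 bp upstream). The KO peak 970 bp upstream of Pcdhb15 had a central 31 bp word found at 534 places in the genome. Without peaks of this kind the KO count within 2 kb was 8 first exons.

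GC content differed between the classes of protocadherin starts, while their CpG values overlapped, as did open and closed starts. In 13 of the 41 first exons an annotated transcript begins at its first coding base, with no untranslated stretch before it. Windows and distances at these starts are therefore anchored unlike those at the others. Over 500 bp on either side of the start, GC content had a median of 57.4% in the 5 C-type exons (50.5 to 67.3). It was 43.8% in the 36 alternate exons (37.7 to 50.6) and 41.5% in the 22 beta exons. All protein-coding starts had a median of 51.5%, and those with a WT peak had 59.3%. The observed to expected number of CpG sites, which is high in CpG islands, had a median of 0.670 in C-type starts (0.247 to 0.798). It was 0.440 in alternate starts (0.158 to 0.893), which include the beta starts, and 0.398 in beta starts (0.158 to 0.554). The annotated alternate alpha starts, none with a peak within 500 bp, ranged from 0.643 (Pcdha9) to 0.732 (Pcdha10). All protein-coding starts had a median ratio of 0.314, and those with a WT peak had 0.724. The 11 member starts with a peak within 500 bp in either library had a median GC content of 49.4% (38.9 to 67.3), and the 30 without had 43.8% (37.7 to 52.9). Their observed to expected CpG medians were 0.606 and 0.428, but 0.593 and 0.531 over 250 bp on either side. Among the open starts Pcdhga12 had a GC content of 38.9% and Pcdhb3 40.9%, below the median of the closed ones. Pcdhac2, with most peaks at its start, also had the highest GC content (67.3%) and 89 CpG sites. Pcdhgc5, the C-type exon with no start peak, had 17 CpG sites and the lowest observed to expected value of the C-type group, 0.247.

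The beta genes carried their peaks far from the start, near the 3′ end of the coding sequence. From 1.5 to 2.5 kb downstream of the start, 14 of 22 beta exons had a WT peak (63.6%, interval 40.7 to 82.8) and 8 had a KO peak (36.4%, 17.2 to 59.3). In all first exons that stretch held a WT peak in 3.96% and a KO peak in 3.21%. The stretch was chosen after the positions were seen, so these shares are a description. Both libraries listed it at 7 exons (Pcdhb2, Pcdhb4, Pcdhb6, Pcdhb7, Pcdhb10, Pcdhb14 and Pcdhb21), WT alone at another 7 (Pcdhb3, Pcdhb5, Pcdhb9, Pcdhb12, Pcdhb18, Pcdhb19 and Pcdhb22), and KO alone at Pcdhb17. No peak of either library lay there in Pcdhb1, Pcdhb8, Pcdhb11, Pcdhb13, Pcdhb15, Pcdhb16 or Pcdhb20, whose annotated first exon is only 182 bp long.

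Within the beta exons the peaks kept a narrow distance from the start. The 17 WT peaks lay 1876 to 2378 bp downstream (median 2174) and the 9 KO peaks 1870 to 2181 bp (median 2155). Counted from the end of the coding sequence, the WT peaks lay 713 to 170 bp upstream of it (median 347). Many therefore fell just beyond the 2 kb limit used for promoters: across the cluster, the nearer edge of 11 WT and 8 KO peaks was 2001 to 2200 bp from a start, and that of 1 WT and 2 KO peaks was 1800 to 2000 bp. With 5 kb in place of 2 kb, 28 first exons had a WT and 21 a KO peak. At Pcdhb10 both libraries listed the same pair of peaks, at 1876 and 2137 bp in WT and 1870 and 2143 bp in Uhrf1 KO.

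**Figure D2:**
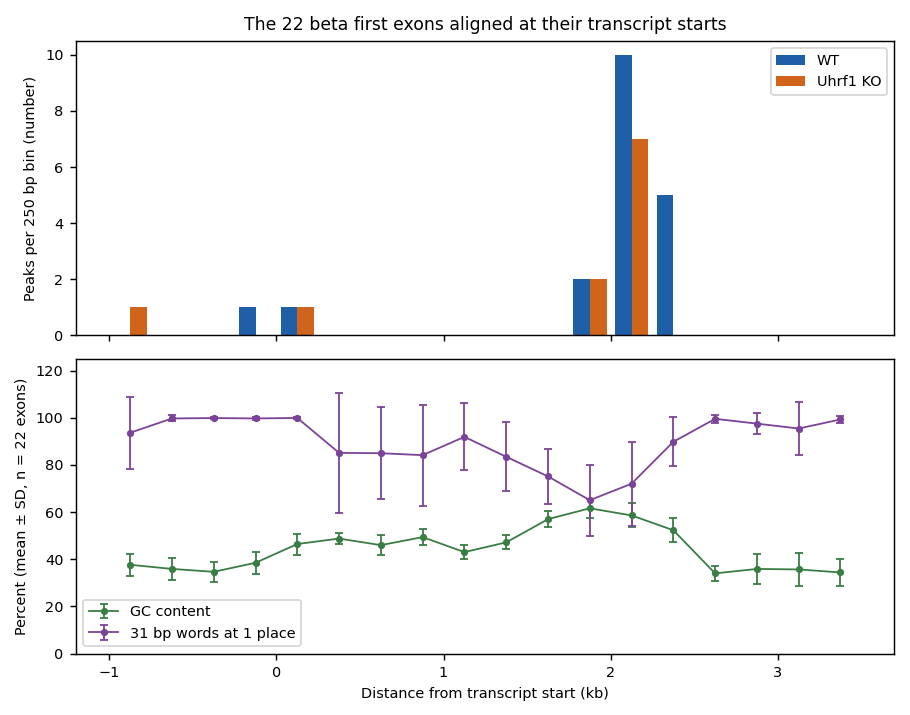
Number of peaks (top, WT blue and Uhrf1 KO orange) and mean ± SD over the 22 beta exons of GC content and of the share of 31 bp words found at 1 place in the genome (bottom, percent), in bins of 250 bp from the start. The bin from 2000 bp held 10 WT and 7 KO peaks, next to the bin with the highest GC content and the lowest share of unique words.

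This stretch is the GC-rich part of a beta exon. Mean GC content was 34.7% in the bin that begins 500 bp upstream of the start, 61.6% in the bin from 1750 bp, 58.6% in the bin from 2000 bp and 34.0% in the bin from 2500 bp. The GC-richest 250 bp of 21 beta exons were centred 1689 to 2080 bp downstream (median 1895). The exception was Pcdhb1, where they were centred at 127 bp, and Pcdhb1 is also 1 of the 2 beta genes with a WT peak within 500 bp of the start. WT peaks lay a median of 298 bp and KO peaks 263 bp downstream of that centre. Exons with and without a peak had a similar GC content, since the stretch had a median of 58.5% in the 14 exons with a WT peak and 57.8% in the 8 without.

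Other first exons of similar length or GC content had lower shares, more so against WT than against Uhrf1 KO beta exons. Among 367 other single-exon coding first exons of 2 to 6 kb, 6.54% had a WT peak (interval 4.24 to 9.57) and 5.72% a KO peak (3.58 to 8.61) in the same stretch. Among 419 other coding first exons of that length whose stretch had a GC content within the range of the beta exons, from 43.9 to 60.2%, the shares were 7.88% and 6.44%. The low end of that range is set by Pcdhb1 alone, which had no peak there. With the range of the other 21 beta exons, 52.2 to 60.2%, 171 exons were left and the shares were 14.04% (interval 9.20 to 20.2) and 12.3% (7.77 to 18.2). The WT interval stayed below that of the beta exons, while the KO interval overlapped it. Because the stretch was chosen from the beta peaks themselves, these intervals cannot test whether beta exons differ. The beta exons are also neighbours with shared sequence, which the intervals do not take into account. These 171 exons had a peak within 500 bp of the start in 56.7% in WT and 49.7% in Uhrf1 KO, against 2 and 1 of the 21 beta exons annotated as coding. The alternate alpha exons have a GC-rich stretch at the same distance (mean 58.1% in the bin from 2000 bp), but only Pcdha3 had a peak there, 2236 bp downstream in WT. The C-type exon Pcdhac1 had a KO peak 1927 bp downstream. The gamma exons had none. The peaks 2712 bp (WT) and 2751 bp (KO) into Pcdhga12 lay near the end of its exon and at the start of the noncoding gene Gm16882, on the opposite strand.

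**Figure D3:**
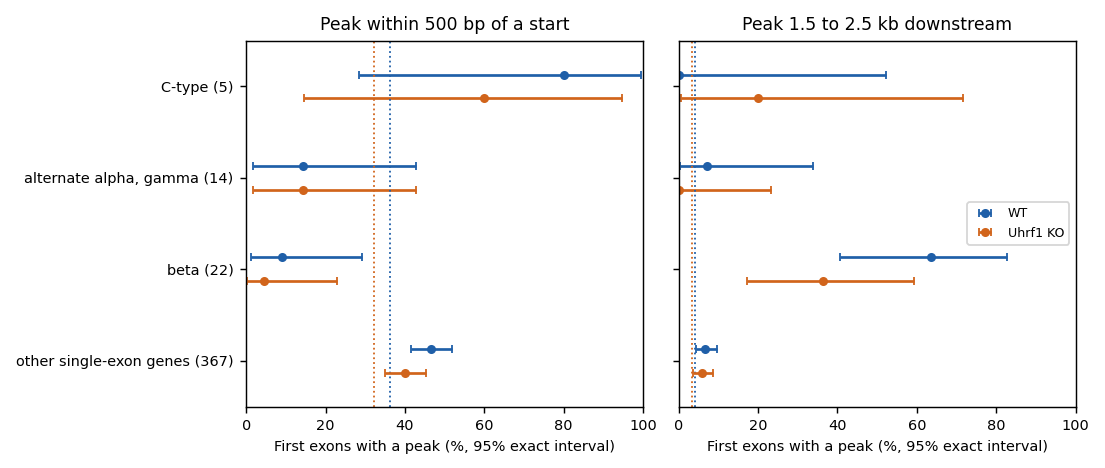
Share of first exons (percent, with 95% exact binomial interval) with a peak within 500 bp of a start (left) and 1.5 to 2.5 kb downstream (right), for C-type, alternate alpha and gamma, beta and other single-exon genes (number of exons in parentheses), with dotted lines at the share of all first exons. Beta exons were at 9.09% (WT) and 4.55% (KO) at the start but at 63.6% and 36.4% downstream.

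Sequence is shared between beta genes here, which bears on where reads can be placed. The share of 31 bp words found at 1 place in the genome was 99.9% at the start of the beta exons and 65% in the bin from 1750 bp. Reads had been given a single alignment each, and one from a shared word could be placed in any of its copies. The central 31 bp of every beta peak was found at 1 place, and a peak had a median of 92.9% of its words at 1 place in both libraries. Every repeated word within these peaks had all of its copies inside the cluster. Counting only peaks with every word at 1 place left 6 exons in WT and 2 in Uhrf1 KO. How far shared sequence moved peaks between beta genes was not tested.

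Fewer beta exons had a downstream peak in Uhrf1 KO than in WT, but the counts were small. The KO to WT ratio of peaks in beta exons was 9 to 17, or 0.529 (95% exact interval 0.208 to 1.26), and that of the other peaks over the cluster was 46 to 43, or 1.07 (0.690 to 1.66). These intervals overlap, and the ratio of all peaks in the genome, 0.857, lies within both. Among the beta peaks 8 of 17 in WT had no KO partner within 100 bp (47.1%, interval 23.0 to 72.2), and 1 of 9 in Uhrf1 KO had no WT partner (11.1%, 0.281 to 48.2). With the WT list cut to the length of the KO list by the number in the peak name, the exons with a downstream peak were 12 in WT and 8 in Uhrf1 KO. The same setting gave fewer WT than KO counts elsewhere, with 7 against 9 first exons with a peak within 2 kb of a start and 48 against 55 peaks over the cluster.

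Letters from the middle of the CTCF motif were frequent in the same stretch. The pattern AGNNGGCGC, searched on both strands, occurred in the bin of 250 bp that begins 2000 bp downstream of the start in 11 of 22 beta exons, against 0.988% of all first exons. Of these 11 exons, 6 had a WT and 4 a KO peak from 1.5 to 2.5 kb, and of the 11 without the pattern 8 had a WT and 4 a KO peak. The bin is only part of the stretch, and whether pattern and peak go together was not tested. Around the beta peaks themselves, the pattern was found in WT at Pcdhb4, Pcdhb14, Pcdhb18 and Pcdhb19. In Uhrf1 KO it was found at Pcdhb4, Pcdhb7, Pcdhb14 and Pcdhb17, and the other beta peaks lacked it. The pattern was found in 18.3% of WT and 27.3% of KO peaks over the cluster, and in 10.6% and 8.65% of all peaks. Near the start it was found in 10 of the 41 first exons, 2 of them among the 5 C-type exons and 3 among the 22 beta exons (13.6%). The others were the alternate alpha exons Pcdha1, Pcdha4, Pcdha9, Pcdha10 and Pcdha12, none with a start peak. Member starts with a peak within 500 bp had the pattern in 2 of 11 (18.2%) and those without in 8 of 30 (26.7%). All protein-coding starts had it in 14.7% and those with a WT peak in 31.7%. A match of letters is a description, and CTCF binding was not analysed here.

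Over the whole cluster with 50 kb on either side, the libraries held nearly equal numbers of peaks. WT had 60 peaks there, with a 95% exact Poisson interval of 45.8 to 77.2. Uhrf1 KO had 55 (41.4 to 71.6), and the KO to WT ratio was 0.917 (0.624 to 1.34). All peaks gave 0.857 and chromosome 18 gave 0.832. Relative to all peaks the cluster ratio was 1.07 (0.728 to 1.57), an interval that includes equality. Peak density was 5.93 per 100 kb in WT and 5.44 in Uhrf1 KO, above the 2.46 and 2.05 of chromosome 18. Of 2596 windows of the same length tiled along the genome, 7.17% held more WT peaks and 5.35% more KO peaks than the cluster did.

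**Figure D4:**
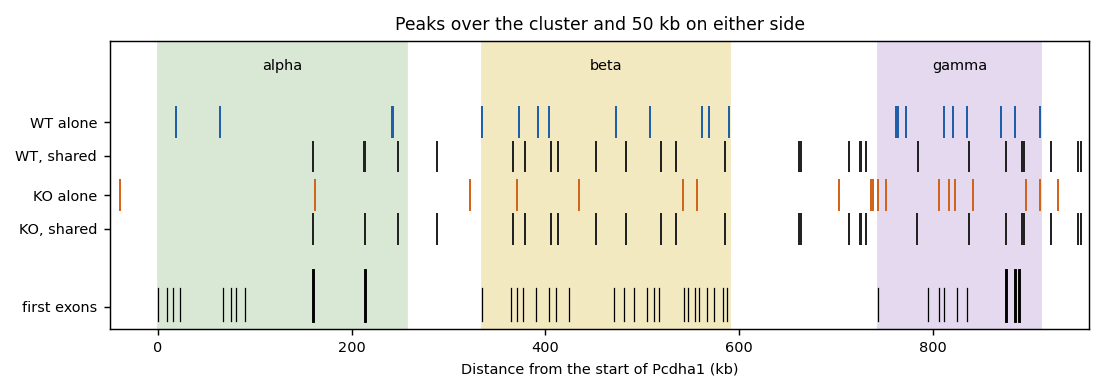
Peaks over the cluster and its flanks by distance in kb from the start of Pcdha1, in rows for WT and Uhrf1 KO peaks with a partner in the other library (black) and without one (blue, orange), above the 41 first exons (taller lines, C-type). A partner was found for 36 of 60 WT and 36 of 55 KO peaks, and the alpha array upstream of the C-type exons held 2 WT peaks and no KO peak.

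Peaks with a partner in the other library within 100 bp were 36 of 60 in WT and 36 of 55 in Uhrf1 KO. Unpartnered peaks made up 40.0% in WT (interval 27.6 to 53.5) and 34.5% in Uhrf1 KO (22.2 to 48.6), against 32.1% and 24.6% of all peaks. Both intervals include the genome-wide value. Starts held 10 WT and 9 KO peaks, first exon bodies 21 and 12, and constant exons 2 and 3. Annotated introns of member genes held 7 and 5, other genes 13 and 10, and stretches between genes 7 and 15. All 7 WT peaks between genes were shared, whereas 6 of 15 KO peaks between genes were not. Of the unshared ones, those at 37632180 and 37792777 had central words at 534 and 8 places. The classes depend on peak edges: the shared KO peak at 37803904 counted as between genes, and the WT peak at 37803847, which it overlaps, as in Taf7.

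The peaks listed in only 1 library were spread over the 3 arrays. Of the 24 WT peaks without a KO partner, 8 lay in beta exon bodies, 5 at starts and 6 in annotated introns. Of the intron peaks, 4 lay from 761.8 to 772.3 kb, between Pcdhga3 and Pcdhga8. The rest of the 24 were the peak in Pcdha3, a pair in Gm10544, 1 in Gm16882 and 1 in the last gamma constant exon, 910.7 kb from the start of Pcdha1. Because 17 RefSeq variants have no start in this annotation, whether intron peaks lie at their first exons was not tested. Of the 19 KO peaks without a WT partner, 3 lay at starts, in Pcdhb3, Pcdhga3 and Pcdhga9, and 2 in the bodies of Pcdhac1 and Pcdhb17. Another 6 lay between genes, among them a pair 7225 and 5455 bp upstream of Pcdhga3. Introns and other genes held 3 each, and the last gamma constant exon held 1. The KO peak in the upstream flank, 39255 bp before Pcdha1, had a central word at 200 places in the genome.

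Several shared peaks lay away from the starts. One lay 288 kb from the start of Pcdha1, between the alpha constant exons and Pcdhb1, at chr18:37377922-37378022 in WT with KO peaks at 37377888 and 37377991. Within the beta array shared peaks lay upstream of Pcdhb9 (18692 bp in WT and 18694 bp in KO) and of Pcdhb15 (7976 and 7979 bp). Past Pcdhb22, the WT peak at 37752072 and the KO peak at 37752079 overlapped a repeat, with a central word found at 10331 places for the WT and 7 for the KO position, while their neighbours at 37754014 and 37754019 were at 1 place. Across the cluster 4 WT and 4 KO peaks had a central word at more than 1 place. In the gamma array shared peaks lay 10.9 kb upstream of Pcdhga8 and, far downstream of the start of Pcdhgc5, at the first gamma constant exon, which overlaps the first exon of 1 of its transcript models, from 37984588 in WT and from 37984621 and 37984675 in Uhrf1 KO.

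Other genes in the span and its flanks were compared with the protocadherins. Within 2 kb of a start, 5 of 9 had a peak in each library (55.6%, interval 21.2 to 86.3). Taf7, which encodes a subunit of the general transcription factor TFIID and lies between the beta and gamma arrays, had 2 WT and 2 KO peaks. 3222401L13Rik had 3 and 2, and Diap1, which encodes a formin that nucleates actin filaments and follows the gamma array, had 4 and 6. The noncoding genes Gm10544 and Gm16882 had 1 each in both, those of Gm16882 being the peaks near the end of the Pcdhga12 exon. Gm6756, Gm10545, Slc25a2 and SNORA40 had none.

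Counted as genes, most protocadherins outside the cluster, each with a promoter of its own, had an open start. The list held 14 names, and those without an entry in this annotation were left out. Of 13 annotated entries, 12 had a WT peak within 2 kb (92.3%, interval 64.0 to 99.8) and 10 a KO peak (76.9%, 46.2 to 95). For the clustered genes, 5 and 6 of 25 gave intervals of 6.83 to 40.7% (WT) and 9.36 to 45.1% (KO) for the share, and the WT intervals did not overlap. Pcdh15 counts as 2 entries that share a start region. Counted once, 11 of 12 had a WT peak (61.5 to 99.8%) and 9 of 12 a KO peak (42.8 to 94.5%), so the KO intervals overlapped. Pcdh9 and Pcdh11x had 2 WT peaks each and no KO peak, and Pcdh12 had none in either. Counted as first exons, 10 of 24 of the other protocadherins had a WT peak within 500 bp of a start (41.7%, interval 22.1 to 63.4). A KO peak was found at 9 (37.5%, 18.8 to 59.4). The clustered first exons had 8 of 41 in WT (19.5%, 8.82 to 34.9) and 6 of 41 in Uhrf1 KO (14.6%, 5.57 to 29.2). In this count the intervals overlapped in both libraries. In the stretch from 1.5 to 2.5 kb downstream, 5 of the 24 first exons of the other protocadherins had a peak in each library. Within 2 kb of a start, genes that act on the cluster had a peak in 14 of 14 in both libraries. The share of all protein-coding genes was 63.7% in WT and 58.8% in Uhrf1 KO. Among the 14 were Ctcf, the cohesin subunits Rad21, Smc1a and Smc3, the repressor Smchd1, and the methyltransferases Dnmt1, Dnmt3a and Dnmt3b. Dnmt3b had no KO peak within 500 bp. Other multigene families spanned a wide range within 2 kb, with Hox genes at 27 and 17 of 40 and olfactory receptors at 21 and 18 of 1087 in WT and Uhrf1 KO.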

How the data were processed

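ATAC-seq libraries of undifferentiated E14 ESCs (1 WT, 1 Uhrf1 KO) were analysed. Bowtie2 2.1.0 (local alignment, 1 hit reported) was used by the authors for mapping to mm9, and fragments below mono-nucleosome size were kept. HOMER 4.9.1 is listed in the submitters' processing notes with no role, and the peak caller, its threshold and any shift of read ends are not given in the sources used here. The deposited score is 1 for every peak and was not used as a measure of strength. Read counts were not used here, so depth is unknown.

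Peaks were placed on GENCODE vM1 (Ensembl release 65, NCBIM37, the same build as mm9). Overlapping first exons, and starts within 500 bp, were joined. Alpha and gamma first exons were named by matching their span to the shared 3′ end with RefSeq gene lengths (GRCm38.p6, names only). 14 of 19 matched exactly and the largest difference was 297 bp. A peak counted at a start within 2 kb, and peaks were shared when at most 100 bp apart. Copies of 31 bp words were counted on both strands of the genome. Intervals are 95% exact binomial (Clopper-Pearson) or Poisson. With 1 library per genotype no test was made. Python 3.11.15, numpy 2.4.6, scipy 1.17.1, pysam 0.24.0, samtools 1.23.1, numba 0.67.0 and matplotlib 3.10.9 were used, and the routines were tested on simulated data.

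The members and lists were chosen with earlier results of these data known. Named were all members with a promoter peak in either library, the C-type genes, the first gene of each array, other genes within the span and the listed protocadherins and regulators. Beta exons with a downstream peak, the single-exon and GC-matched comparisons and the position of the GC-richest bases were added after the data were seen. Alternatives were other windows, flanks, overlap rules, list lengths and the removal of peaks in repeated sequence. Neuron markers had a peak in 5 of 5 in WT and 4 of 5 in Uhrf1 KO. No sequence of this locus is printed here.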

Additional observations from a re-analysis of the deposited data

How the results depend on the processing

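Of 96 alternatives, 74 stayed within 1.5 times the reported count or within the interval or SD of the reported value. The order of the libraries turned in places: genes with a promoter peak were 5 in WT and 6 in Uhrf1 KO, but 4 and 3 within 500 bp and 20 and 14 within 5 kb. With lists of equal length they were 4 and 6, first exons were 7 and 9, and peaks over the cluster were 48 and 55 in place of 60 and 55. Within 5 kb of a start, 28 first exons (20 genes) had a WT and 21 (14 genes) a KO peak. With only the lower 50% of name numbers, whose meaning is not stated, these were 5 first exons (3 genes) in WT and 3 (3 genes) in Uhrf1 KO, the cluster held 19 WT and 18 KO peaks, and 4 and 1 beta exons had a downstream peak. With only the most upstream start of each gene, 3 genes had a WT peak, and within 500 bp 3 genes had a KO peak. When at least 50% of both peaks had to overlap, 55.0% of WT and 50.9% of KO peaks over the cluster had no partner. Beta exons with a downstream peak made only of words at 1 place were 6 in WT and 2 in Uhrf1 KO, a setting chosen after seeing the data that keeps fewer peaks by construction. Over 2 kb on either side, starts with a peak had a median observed to expected CpG of 0.432, against 0.606 over 500 bp. With the GC range taken without Pcdhb1, also chosen after seeing the data, other first exons had a peak in the stretch in 14.04% (WT) and 12.3% (KO). Within 1 kb, 9 olfactory receptors had a KO peak. For the other results the cause of a change was not tested. No paired analysis was possible because WT and Uhrf1 KO had 1 library each.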
